A study of Mus musculus with 20 samples.

Results

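Dermis and epidermis of wild-type mouse embryos of stage E14.5 (E for embryonic day, strain given as mixed) were compared. The 8 libraries, 4 of dermis and 4 of epidermis (numbers 3, 4, 5 and 7 in each), are part of a series of 20 and were taken by their labels, and a dermis and an epidermis of the same number were treated as a pair. The remaining 12 libraries come from dermis and epidermis of healed wounds. They were made from K14-CreER; LSL-Shh mice, in which the keratin 14 promoter drives a tamoxifen-inducible Cre that switches on Sonic hedgehog in the epidermis (Shh wounds, 3 libraries per layer), and from control mice (WT wounds, 3 per layer), all 4 to 5 weeks old and sampled 2 days after the scab detached. Per the paper, tamoxifen was given to both kinds of wounded mice, controls included. Skin was placed in 20 mM EDTA at 37 °C and the layers were peeled apart before RNA extraction. The labels and methods do not say how many embryos went into a library, so p-values measure only the spread between these libraries.

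Skin at this stage consists of an epithelial sheet resting on a basement membrane and, below it, a mesenchyme of fibroblasts crossed by vessels, nerves and blood cells. Hair follicles begin at this time, when epidermal thickenings called placodes and clusters of fibroblasts called dermal condensates exchange Wnt, ectodysplasin, FGF and Hedgehog signals. A placode lies in the epidermis, and the condensate, which later forms the dermal papilla of the follicle, lies in the dermis. Comparing the layers shows on which side each signal, receptor and inhibitor is transcribed.

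Levels are in CPM, the reads of a gene when its library is scaled to 1000000. The E14.5 libraries held 16160420 to 18745431 reads in dermis and 15663677 to 16510330 in epidermis, so that 1 read equals 0.0533 to 0.0638 CPM, and 18849 to 19419 genes had at least 1 read. Differences are dermis minus epidermis on the log2(CPM + 1) scale, which understates changes of weakly expressed genes, with the standard error of the fit (SE). A gene was called at a Benjamini-Hochberg adjusted p under 0.05 in limma with the pair as a block. Of 19712 genes tested, 6282 (31.9%) were higher and 7004 (35.5%) lower in dermis. Because 67.4% of all genes passed, the gene groups below are counted at a called difference of at least 2-fold, which 3420 genes (17.3%) met upward and 2094 (10.6%) downward. Over all 19712 genes tested, 29.5% had no overlap between the libraries of the layers with dermis higher, and 32.6% with dermis lower. The median difference was -0.05 over all genes tested and -0.22 over the 4927 genes that averaged at least 50 CPM.

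Some transcripts of each layer were found in the other, and more in certain libraries. For 58 keratinocyte genes (identity factors, differentiation genes and desmosome components), the median level was 8.26% of the epidermal mean in dermis 4, against 2.12% to 2.75% in dermis 3, 5 and 7. For 60 fibroblast and matrix genes, the median level was 2.90% of the dermal mean in epidermis 5, and 6.46% to 9.26% in epidermis 3, 4 and 7. Dermis 4 also held cartilage transcripts, with Col2a1 (the main collagen of cartilage) at 939 CPM where dermis 3, 5 and 7 had 3.25, 3.03 and 36.5 CPM. Dermis 7 held the most skeletal muscle transcripts, whose 22 markers summed to 28031 CPM there and to between 7262 and 9038 CPM in the other dermis libraries. Adipoq, a hormone of fat cells, reached 39.7 CPM in dermis 7 and was at or below 0.213 CPM in the others. How far these admixtures set the smaller values below was not tested.

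The labels matched the markers of the layers, in lists that were chosen with earlier results of these data known. All 30 genes of the fibrillar collagen and interstitial matrix list were higher in dermis, 29 of them at least 2-fold, with a median difference of 3.34. Among 30 measured fibroblast factors and surface genes, 26 were at least 2-fold higher and 1 was lower. In the opposite direction, 28 of 30 epidermal identity and adhesion genes and all 19 suprabasal differentiation genes were at least 2-fold lower in dermis, with medians of -4.13 and -5.19. In bulk RNA, fewer cells of a type and less RNA per cell cannot be told apart.

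**Figure D1:**
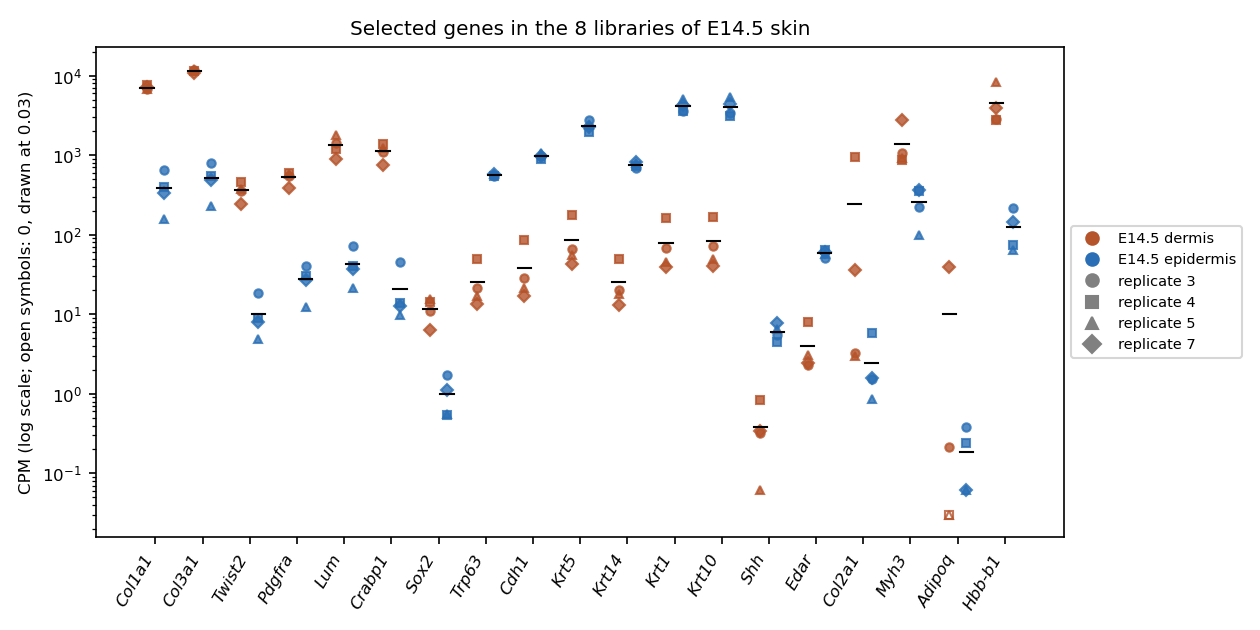
CPM on a log axis of 19 genes in each E14.5 library, dermis to the left of epidermis, with 1 symbol per replicate number and a black line at the mean of 4 libraries. Matrix and fibroblast genes are above all epidermis libraries in every dermis library, keratinocyte and placode genes below, and Col2a1, Myh3 and Adipoq show a single dermis library standing above the other 3.

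Col1a1, a chain of type I collagen (chr11:94797538-94814356, build NCBIM37), had 6738, 7676, 6776 and 7102 CPM in dermis 3, 4, 5 and 7, against 646, 396, 158 and 335 CPM in epidermis. Each dermis library was above each epidermis library, and the log2 difference was 4.37 ± 0.27 (SE, n = 4 pairs, limma adjusted p = 2.1e-06). Col1a2, the other chain of type I collagen, and Col3a1, type III collagen, differed by 4.55 ± 0.25 and 4.61 ± 0.27. The exception in the list was Postn, periostin, with 1324, 798, 1192 and 1547 CPM in dermis against 837, 978, 768 and 667 CPM in epidermis. Its libraries overlapped, and its difference of 0.55 ± 0.21 passed narrowly (adjusted p = 0.043) and no longer did without any of pairs 3, 5 and 7, where p ran from 0.12 to 0.17. Without pair 7 the difference was 0.33, and without pair 4 it was 0.84.

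The 10 largest rises in dermis were Crabp1, Crip1, Hbb-b2, Twist1, Hbb-b1, Cldn5, Twist2, Cma1, Lum and Apln, with differences between 5.92 and 4.92. Twist1 and Twist2 are basic helix-loop-helix factors of mesenchyme. Twist2 (chr1:93698038-93744605) had 356, 465, 376 and 242 CPM in dermis and 18.6, 9.09, 4.84 and 7.95 CPM in epidermis, a difference of 5.12 ± 0.25 (SE). Lum (lumican, a collagen-binding proteoglycan) and Crabp1 (a retinoic acid binding protein of dermal condensate and papilla fibroblasts) differed by 5.01 ± 0.28 and 5.92 ± 0.31. Crabp1 was the largest rise of all genes averaging at least 1 CPM, with 1111, 1366, 1243 and 753 CPM in dermis against 46.0, 13.9, 9.79 and 12.8 CPM in epidermis. En1, a homeobox factor that marks a lineage of trunk dermis, averaged 32.3 ± 3.59 CPM in dermis and 0.782 ± 0.527 CPM in epidermis (SD, n = 4 each). Dpp4, which marks papillary fibroblasts in mice, went the other way with 18.7, 8.77, 17.3 and 35.5 CPM in dermis and 53.2, 55.8, 57.4 and 58.7 CPM in epidermis (-1.60 ± 0.24). Lrig1, another papillary fibroblast marker that also marks epithelial stem cells, had 301 ± 40.3 CPM in dermis and 303 ± 16.9 CPM in epidermis.

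The 10 largest falls were genes of keratinocytes or of the differentiating layers above the basal layer. They were Krtdap, Krt77, Dmkn, Krt1, S100a14, Asprv1, Krt10, Pla2g2f, Perp and Them5, with differences between -6.28 and -5.74. Krt1, the suprabasal type II keratin (chr15:101675859-101681217), had 68.1, 164, 45.1 and 39.8 CPM in dermis against 3619, 3542, 5069 and 4238 CPM in epidermis. Its highest dermis value was again in dermis 4, and the groups did not overlap. Basal layer keratins followed at slightly smaller differences, with Krt5 at -4.97 ± 0.31 and Krt14 at -5.03 ± 0.26. Transcripts of the late cornified envelope were present but uneven: Lor (loricrin) had 1.97, 3.75, 3.16 and 1.94 CPM in dermis and 66.2, 66.3, 352 and 189 CPM in epidermis. Epidermis 5 held the most Lor and also the most Ivl (involucrin), 5.81 CPM where the other epidermis libraries had 1.98 to 2.38 CPM.

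Not all genes known from epithelium were layer-specific. Of 12 basal layer genes 8 were at least 2-fold lower in dermis, whereas Itga6, the integrin alpha chain of hemidesmosomes that endothelium also uses, had 217, 253, 248 and 164 CPM in dermis and 182, 191, 175 and 179 CPM in epidermis. Its difference of 0.26 ± 0.11 missed the threshold (adjusted p = 0.062) and passed it under TMM scaling (0.31, adjusted p = 0.024). Its partner Itgb4 had 25.9 ± 11.6 CPM in dermis and 199 ± 11.5 CPM in epidermis (SD, n = 4 each; -2.98 ± 0.19). Klf4, a factor of epidermal barrier formation, was lower by less than 2-fold (-0.90 ± 0.12), with 51.1, 36.0, 53.3 and 78.5 CPM in dermis and 88.8, 74.7, 127 and 114 CPM in epidermis. Among keratins of simple epithelia, Krt18 had 0.320, 2.21, 1.42 and 1.54 CPM in dermis and 8.11, 8.24, 7.41 and 6.45 CPM in epidermis (-1.92 ± 0.24). Krt8 averaged 0.181 CPM in dermis and 1.07 CPM in epidermis (-0.74), and its call was lost without pair 3 (-0.46, adjusted p = 0.056) or pair 5 (-0.69, adjusted p = 0.054).

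**Figure D2:**
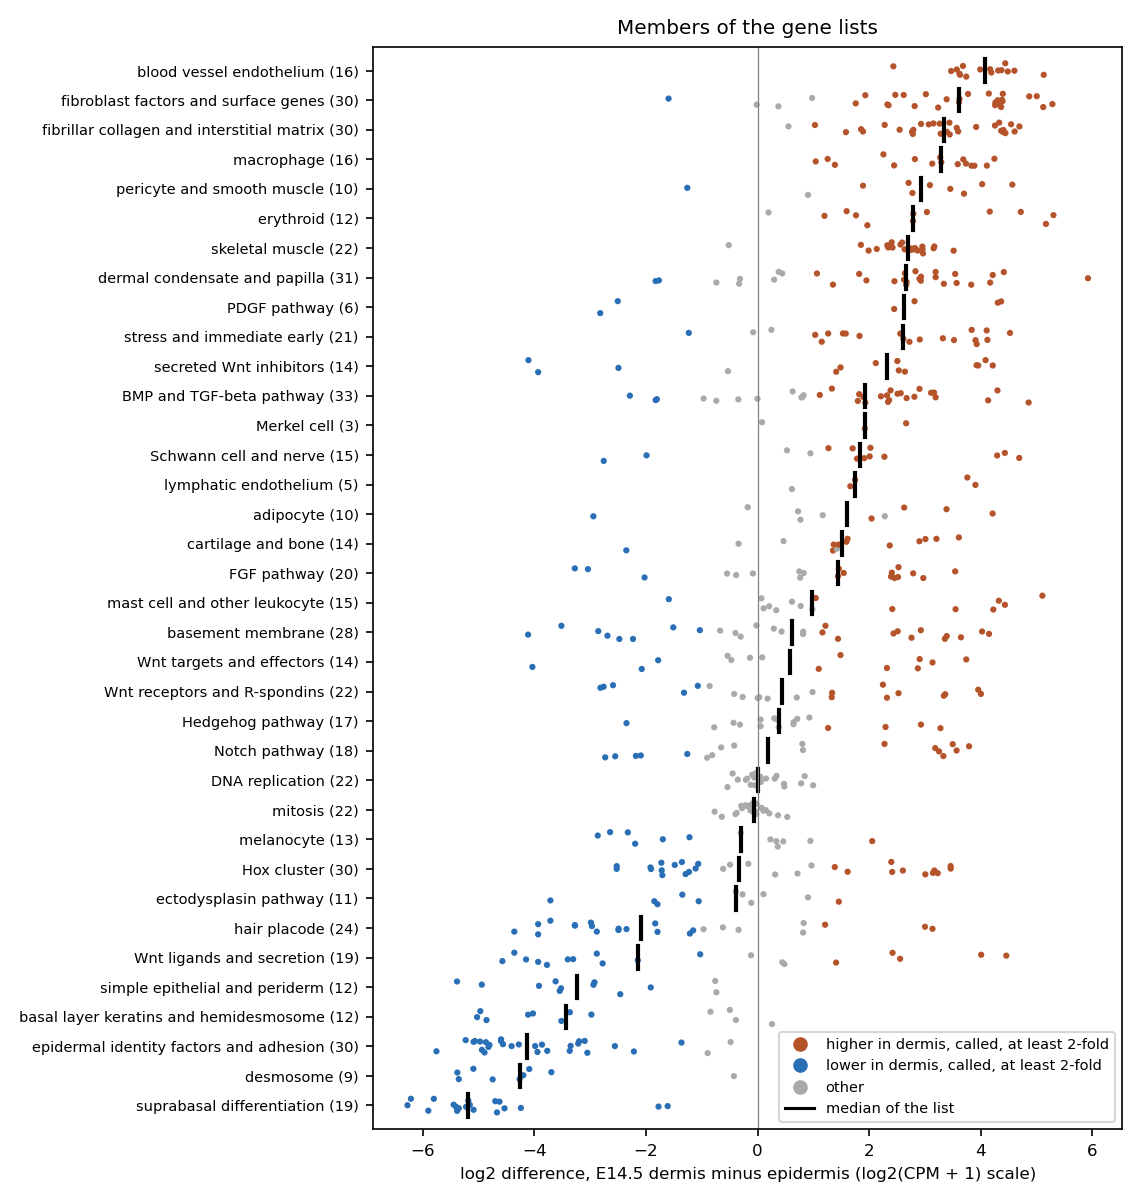
Log2 difference (dermis minus epidermis) of every measured member of 36 gene lists, ordered by the list median (black line), with the number of members in brackets. Endothelial, fibroblast, matrix and macrophage lists lie to the right, keratinocyte lists to the left, DNA replication and mitosis lists are centred near 0, and Wnt ligands, basement membrane genes and Hox genes spread to both sides.

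Basement membrane genes were transcribed in both layers. In bulk dermis, transcripts for the membrane between the layers and for those of vessels or muscle cannot be told apart. Of 28 measured members, 12 were at least 2-fold higher and 8 at least 2-fold lower in dermis. Lama3 and Lamb3, laminin chains that anchor keratinocytes, differed by -4.11 ± 0.25 and -3.52 ± 0.25. Lama3 had 12.1, 31.8, 9.10 and 7.35 CPM in dermis against 244, 254, 227 and 227 CPM in epidermis. The laminin chains of vessels and mesenchyme were higher, Lama2 by 3.36 ± 0.19 and Lama4 by 3.65 ± 0.19. Type IV collagen, the network of the membrane, split by gene pair. Col4a1 had 1449, 1728, 1477 and 1575 CPM in dermis and 317, 300, 243 and 290 CPM in epidermis (2.44 ± 0.10), and Col4a2 differed by 2.51 ± 0.10. Col4a6 had 15.2, 18.1, 10.4 and 9.05 CPM in dermis and 61.7, 71.5, 60.7 and 60.6 CPM in epidermis (-2.23 ± 0.14), and Col4a5 differed by -1.51 ± 0.11. The nidogens, which link laminin to type IV collagen, were dermal, Nid1 at 3.39 ± 0.11 and Nid2 at 4.15 ± 0.19.

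The Fraser complex, 3 large proteins that hold embryonic epidermis to dermis, was also divided. Fras1 had 89.4, 172, 65.3 and 124 CPM in dermis and 763, 818, 766 and 745 CPM in epidermis (-2.86 ± 0.18). Frem2 was lower in dermis by a similar amount (-2.48 ± 0.22). Frem1 was higher there, with 318, 428, 375 and 177 CPM in dermis and 115, 132, 105 and 102 CPM in epidermis (1.44 ± 0.15). Egfl6, a basement membrane protein, was dermal at 2.76 ± 0.11. Npnt (nephronectin) had 35.9, 35.4, 35.1 and 61.8 CPM in dermis and 44.4, 52.1, 47.4 and 59.4 CPM in epidermis, and its small difference (-0.30 ± 0.11, adjusted p = 0.039) did not pass without pair 3, 4 or 5. Its integrin receptor chain Itga8 had 71.2 ± 18.1 CPM in dermis and 4.75 ± 2.22 CPM in epidermis (SD, n = 4 each).

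Of 24 measured hair placode genes, 16 were at least 2-fold lower in dermis and 3 at least 2-fold higher. Edar, the ectodysplasin receptor that marks placodes (chr10:58063537-58138402), had 2.29, 8.06, 3.09 and 2.45 CPM in dermis against 51.5, 64.8, 58.0 and 60.5 CPM in epidermis. Its difference was -3.71 ± 0.21 (SE, adjusted p = 1.3e-06), and its dermal mean was 6.77% of the epidermal mean. Dkk4, a secreted Wnt inhibitor of placodes, Fgf20, a placode FGF, and Foxi3, a forkhead factor of placodes, differed by -3.93 ± 0.28, -3.28 ± 0.18 and -3.27 ± 0.20. Fgf20 had 0.267, 0.773, 0.186 and 0.0569 CPM in dermis and 10.1, 12.6, 12.6 and 11.1 CPM in epidermis. The list also holds genes named by the study: Trp73, Vwa2, Samd5 and Cxcl14 were at least 2-fold lower in dermis (-2.99, -2.97, -1.83 and -1.15), Nedd9 was lower by less than 2-fold (-0.62 ± 0.08), and Tnfaip3, an inhibitor of NF-kappa-B signalling, was higher (0.82 ± 0.12).

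The exceptions of the placode list were Sp5, Nfatc1 and Madcam1. Sp5, a Wnt target gene, had 31.4, 39.4, 31.0 and 17.4 CPM in dermis and 3.96, 1.39, 2.33 and 2.25 CPM in epidermis (3.14 ± 0.25). Nfatc1, a calcium-dependent factor of follicle stem cells that endothelium also uses, had 42.3 ± 4.56 CPM in dermis and 4.74 ± 2.19 CPM in epidermis (SD, n = 4 each). Madcam1, a vascular adhesion molecule, differed by 1.21 ± 0.25. Sox9, a factor of follicle stem cells and of cartilage, had 15.4, 23.0, 12.9 and 23.5 CPM in dermis and 23.6, 19.9, 21.0 and 29.4 CPM in epidermis (-0.34 ± 0.16, adjusted p = 0.081). Without pair 4, whose dermis held the cartilage transcripts, its difference was -0.52 (adjusted p = 0.0096). Tgfb2, a growth factor of placode formation, had 50.7, 37.1, 34.6 and 50.3 CPM in dermis and 81.4, 14.9, 13.9 and 17.7 CPM in epidermis, so that epidermis 3 was above every dermis library. Its difference passed narrowly (0.83 ± 0.31, adjusted p = 0.042). Without pair 3 it was 1.33 (adjusted p = 9.9e-05), and with pair 4, 5 or 7 left out it did not pass (adjusted p from 0.12 to 0.17).

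Of 31 measured condensate and papilla genes, 23 were at least 2-fold higher in dermis and 2 at least 2-fold lower. Sox2, a factor of condensates that Schwann and Merkel cells also use, had 10.9, 14.3, 15.5 and 6.43 CPM in dermis and 1.72, 0.545, 0.551 and 1.13 CPM in epidermis (2.66 ± 0.29). Foxd1 and Sox18, further condensate factors of which Sox18 also belongs to endothelium, differed by 3.19 ± 0.19 and 4.17 ± 0.20. Enpp2 (autotaxin, which makes lysophosphatidic acid) and Lamc3 (a laminin chain), papilla genes named by the study, differed by 3.83 ± 0.23 and 2.93 ± 0.27. Trps1, a zinc finger factor also named by the study, was transcribed in both layers, with 92.4, 107, 106 and 70.7 CPM in dermis and 67.8, 76.4, 63.9 and 64.6 CPM in epidermis (0.44 ± 0.10). Bmp7, also a papilla gene named by the study, and Sdc1 (syndecan-1, a heparan sulfate proteoglycan) were the genes at least 2-fold lower. Fst (-0.74 ± 0.09) and Cdkn1a (-0.33 ± 0.10) were lower by less than 2-fold. Bmp7 had 34.0, 49.1, 39.4 and 34.2 CPM in dermis against 154, 134, 136 and 137 CPM in epidermis (-1.83 ± 0.12), while Bmp4, which is made by condensates, had 27.2, 31.8, 29.8 and 19.9 CPM in dermis and 3.51, 3.03, 2.69 and 4.38 CPM in epidermis (2.67 ± 0.20). Vcan (versican), often used to mark condensates, had 784, 758, 842 and 714 CPM in dermis and 699, 678, 505 and 653 CPM in epidermis. Its libraries did not overlap, but its difference of 0.30 ± 0.12 missed the threshold (adjusted p = 0.060). The difference passed without the block (adjusted p = 0.037), under TMM scaling (0.027) and without the 50 most abundant genes in the total (0.026). It also passed in edgeR (adjusted p = 0.031) and DESeq2 (adjusted p = 0.0093). Without pair 5 it was 0.15 (limma adjusted p = 0.30).

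The Hedgehog ligand Shh was higher in epidermis, and Ptch1, Gli1 and Gli2 were transcribed in both layers. Shh, Sonic hedgehog (chr5:28783355-28793641), had 0.320, 0.828, 0.0619 and 0.342 CPM in dermis against 5.43, 4.42, 6.61 and 7.76 CPM in epidermis, without overlap (-2.35 ± 0.23, SE, adjusted p = 2.5e-05). Ptch1, the Hedgehog receptor and a target of the pathway, had 106, 165, 134 and 74.0 CPM in dermis and 151, 131, 139 and 152 CPM in epidermis. Its difference of -0.32 ± 0.19 did not pass (adjusted p = 0.17). Without pair 4, whose dermis library had the highest Ptch1, the difference was -0.53 (adjusted p = 0.019), and without pair 7, with the lowest, it was -0.08 (adjusted p = 0.68). Gli1, an effector that is also a target, had 44.9, 77.4, 56.3 and 35.1 CPM in dermis and 38.7, 38.6, 37.0 and 42.5 CPM in epidermis (0.38 ± 0.18, adjusted p = 0.089), and was 0.60 without pair 7 (adjusted p = 0.011) and 0.18 without pair 4 (adjusted p = 0.35). Gli2, the main activator, differed by 0.06 ± 0.16 (adjusted p = 0.78). In the dermis, Ptch1, Gli1 and Gli2 were each highest in library 4 and lowest in library 7, and in the epidermis their values lay closer together.

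Some other members of the pathway had clearer sides. Higher in dermis were Scube2 (which helps release the ligand, 3.28 ± 0.23), Hhip (a secreted-ligand trap and target, 2.93 ± 0.24), Dhh (Desert hedgehog, made by Schwann cells, 2.29 ± 0.21), Gas1 (a co-receptor, 1.27 ± 0.09), and by less than 2-fold the transducer Smo (0.93 ± 0.09) and the factor Gli3 (0.65 ± 0.11). Hhat did not pass (0.05 ± 0.14, limma adjusted p = 0.75). Boc (0.35 ± 0.08) and Sufu (0.30 ± 0.12) were higher in dermis by less than 2-fold, with overlapping libraries. Scube1 (-0.43 ± 0.15) and Scube3 (-0.78 ± 0.13) were lower by less than 2-fold. In all, 4 of 17 members (23.5%) were at least 2-fold higher and 1 (5.88%), Shh, at least 2-fold lower. These shares lie near those over all genes, 17.3% and 10.6%.

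The Wnt ligands divided into an epidermal and a dermal set. Of 19 measured ligand and secretion genes, 11 were at least 2-fold lower and 5 at least 2-fold higher in dermis. The epidermal ligands were Wnt3, Wnt3a, Wnt4, Wnt6, Wnt7a, Wnt7b, Wnt9b, Wnt10a, Wnt10b and Wnt16, and with them Wls, the carrier that all secreted Wnts need (-1.03 ± 0.10). Wnt7b had 7.04, 25.0, 6.93 and 5.35 CPM in dermis against 256, 236, 233 and 237 CPM in epidermis (-4.58 ± 0.29). Wnt10b, a ligand of placodes, had 3.68, 9.05, 2.72 and 3.47 CPM in dermis and 96.4, 71.2, 77.1 and 76.9 CPM in epidermis (-3.93 ± 0.24). Wnt4 was the least one-sided of these ligands, with 40.1, 64.5, 34.6 and 23.1 CPM in dermis and 177, 150, 182 and 180 CPM in epidermis (-2.15 ± 0.22), and its dermal mean was 23.6% of the epidermal mean.

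The dermal ligands were Wnt2, Wnt2b, Wnt5a, Wnt9a and Wnt11. Wnt5a, a ligand that mostly signals without beta-catenin, had 219, 262, 242 and 170 CPM in dermis and 16.9, 15.3, 7.41 and 13.6 CPM in epidermis (4.01 ± 0.19), and its receptor Ror2 differed by nearly the same amount (4.01 ± 0.23). Wnt11 had 63.8, 104, 82.5 and 69.1 CPM in dermis against 3.96, 2.97, 1.65 and 2.25 CPM in epidermis (4.46 ± 0.20). Wnt2 was dermal but uneven, with 15.9, 5.13, 14.4 and 29.4 CPM in dermis and 2.30, 2.18, 0.918 and 1.94 CPM in epidermis (2.42 ± 0.35).

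Secreted inhibitors of Wnt and their co-receptors lay mostly in the dermis, 10 of 14 at least 2-fold higher and 3 lower. Dkk1, which blocks the LRP co-receptors, had 35.5, 31.7, 40.6 and 23.2 CPM in dermis and 1.34, 0.848, 0.428 and 0.626 CPM in epidermis (4.22 ± 0.20). Dkk2 and Sfrp2, inhibitors of the Dickkopf and frizzled-related families, differed by 3.93 ± 0.26 and 3.96 ± 0.19. The epidermal ones were Dkk4, Sostdc1 (a Wnt and BMP antagonist of the epidermis, -2.49 ± 0.14) and Kremen2 (a Dickkopf receptor, -4.11 ± 0.22). Among 14 target and effector genes, 7 were at least 2-fold higher and 3 lower. Lef1, a nuclear effector induced in placodes and upper dermis, had 57.5, 92.5, 65.3 and 29.0 CPM in dermis and 209, 208, 199 and 173 CPM in epidermis (-1.78 ± 0.19). Axin2, a target in most cells with Wnt signalling, had 111, 166, 123 and 73.6 CPM in dermis and 153, 166, 139 and 174 CPM in epidermis (-0.47 ± 0.18, adjusted p = 0.042). That call was lost under TMM scaling (adjusted p = 0.060) and without pair 3 or 7, and the difference was -0.22 without pair 7. The R-spondin Rspo3, which raises Wnt signalling, was dermal (3.34 ± 0.24) and its receptor Lgr4 was higher in epidermis (-1.32 ± 0.09). The related receptors were split, with Lgr5 higher in dermis (2.32 ± 0.21) and Lgr6 higher in epidermis (-2.59 ± 0.32).

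**Figure D3:**
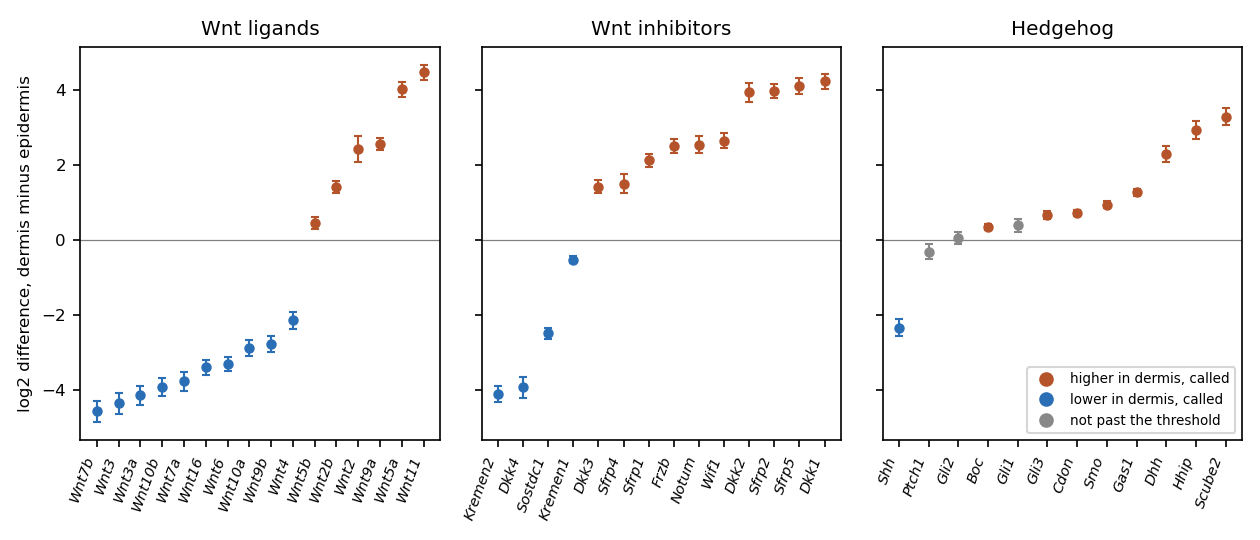
Log2 difference (dermis minus epidermis) with its standard error for Wnt ligands, Wnt inhibitors and Hedgehog pathway genes, from limma over 4 pairs. 10 ligands from Wnt7b to Wnt4 lie below 0, most inhibitors above 0, and Ptch1, Gli1 and Gli2 close to 0 between Shh and Scube2.

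Across 38 ligand and receptor pairs of the skin, 8 had both partners at least 2-fold higher in dermis and 4 both at least 2-fold lower. Singly, 28.0% of all genes reached a called 2-fold difference in either direction, and no such share was taken for pairs. Some pairs share a gene, such as Fzd10 for Wnt10a and Wnt10b or Notch1 for Jag1 and Jag2, so these counts are not independent. In 3 pairs the ligand was epidermal and the receptor dermal, and in 4 the reverse. Pdgfa, the growth factor of dermal fibroblasts, had 40.1, 33.8, 31.7 and 39.0 CPM in dermis and 209, 204, 200 and 224 CPM in epidermis (-2.51 ± 0.08). Its receptor Pdgfra had 543, 601, 585 and 384 CPM in dermis and 40.0, 30.0, 12.4 and 27.2 CPM in epidermis (4.31 ± 0.25). Fgf20 with Fgfr1 (2.41 ± 0.16 for the receptor) and Shh with its co-receptor Gas1 had the same layout.

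In the reverse layout, Fgf10 and Fgf7 were dermal and Fgfr2, whose epithelial form they bind, was higher in epidermis. Fgf10 had 33.3, 35.6, 40.8 and 24.7 CPM in dermis and 2.30, 2.18, 0.796 and 2.88 CPM in epidermis (3.54 ± 0.26). Fgfr2 had 141, 215, 160 and 92.5 CPM in dermis and 625, 648, 552 and 567 CPM in epidermis (-2.03 ± 0.15), with the limit that its deposited span overlaps 28 other listed genes. Hgf (hepatocyte growth factor, 1.66 ± 0.25) with Met (-1.19 ± 0.13) and Rspo3 with Lgr4 completed the set. Notch1 and its ligands Jag1 and Jag2 were all epidermal (-2.18 ± 0.15, -2.73 ± 0.11 and -2.09 ± 0.15).

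For several pairs the ligand was present on both sides and the receptor on 1 side. Eda, the ligand ectodysplasin, had 27.3, 34.6, 33.4 and 32.1 CPM in dermis and 36.3, 34.0, 33.9 and 33.4 CPM in epidermis (-0.11 ± 0.10, adjusted p = 0.37), whereas Edar was epidermal. Sema3a, a guidance cue, had 70.7, 66.8, 62.0 and 55.1 CPM in dermis and 59.1, 63.1, 65.5 and 63.0 CPM in epidermis (0.02 ± 0.10), whereas its receptor Nrp1 had 636 ± 142 CPM in dermis and 30.1 ± 10.5 CPM in epidermis (SD, n = 4 each). Pdgfc, another PDGF, was epidermal at -2.82 ± 0.19. In the FGF list, Fgf9, a signal named by the study, was dermal and low, with 4.16, 2.70, 4.70 and 3.70 CPM in dermis and 1.02, 1.27, 0.306 and 0.501 CPM in epidermis (1.46 ± 0.23).

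Markers of other cell types lay mostly in the dermis. All 16 endothelial and all 16 macrophage genes were at least 2-fold higher there. Cldn5, the tight junction protein of endothelium, had 109, 90.4, 102 and 105 CPM in dermis and 5.11, 1.57, 0.857 and 1.50 CPM in epidermis (5.13 ± 0.23). Csf1r, the receptor of macrophages, averaged 65.8 ± 9.97 CPM in dermis and 6.19 ± 2.97 CPM in epidermis (SD, n = 4 each). Of 15 measured genes of mast cells and other leukocytes, 7 were at least 2-fold higher in dermis and 1 at least 2-fold lower. The largest difference in that list was 5.11 ± 0.43, for the mast cell protease Cma1. Of 22 skeletal muscle genes 21 were at least 2-fold higher in dermis, and the sum of the list ranged from 7262 to 28031 CPM in dermis and from 887 to 3556 CPM in epidermis. Of 12 erythroid genes, which report blood left in the tissue, 11 were higher. The adult beta globin Hbb-b1, whose near-identical copy Hbb-b2 shares its reads, had 2884, 2774, 8297 and 3929 CPM in dermis and 214, 74.4, 64.1 and 146 CPM in epidermis, so that dermis 5 stood above the other dermis libraries.

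Of 13 melanocyte genes 6 were at least 2-fold lower in dermis (Pmel, Dct, Tyr, Mlana, Slc45a2 and Trpm1), 1 was at least 2-fold higher (Ednrb), 3 were higher by less than 2-fold (Sox10, Tyrp1 and Kit), and 3 did not pass (Mitf, Gpr143 and Oca2). With a pseudocount of 0.1, 3 were at least 2-fold higher. Dct, dopachrome tautomerase, had 1.60, 8.77, 8.23 and 8.60 CPM in dermis against 33.6, 42.2, 42.4 and 51.9 CPM in epidermis (-2.64 ± 0.25). Ednrb, the endothelin receptor of melanoblasts, differed by 2.06 ± 0.14, and higher in dermis too were the melanoblast signals Edn3 (3.55 ± 0.20) and Kitl (1.81 ± 0.14). Kitl had 287, 201, 319 and 232 CPM in dermis and 72.2, 72.9, 64.4 and 79.1 CPM in epidermis. Kit, the receptor of Kitl on melanoblasts and mast cells, had 43.2, 43.4, 60.2 and 43.3 CPM in dermis and 32.9, 40.8, 36.9 and 38.1 CPM in epidermis (0.34 ± 0.11, adjusted p = 0.028), a call that was lost without pair 3 or 5 (0.22 without pair 5).

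A few members went against the list they were in. Mbp, myelin basic protein, and Erbb3, a neuregulin receptor, were lower in dermis than in epidermis (-2.76 ± 0.13 and -1.99 ± 0.11), although 11 of 15 Schwann cell and nerve genes were at least 2-fold higher (7 with a pseudocount of 5). Mbp had 12.2, 15.4, 9.96 and 13.9 CPM in dermis and 89.9, 82.5, 94.5 and 101 CPM in epidermis. Cebpa, a factor of fat cells and of keratinocytes, had 57.5, 68.0, 40.8 and 110 CPM in dermis and 519, 477, 514 and 513 CPM in epidermis (-2.94 ± 0.19). Notch3, listed for pericytes, had 151, 200, 142 and 174 CPM in dermis and 397, 377, 416 and 398 CPM in epidermis (-1.26 ± 0.11). Of 14 cartilage and bone genes 10 were at least 2-fold higher in dermis (6 with a pseudocount of 5) and 1 was lower, and for 7 of them every dermis library was above every epidermis library. The sum of the list was 1502 CPM in dermis 4 and 95.2 to 157 CPM in the other dermis libraries, against 139 to 151 CPM in epidermis. The difference of Col2a1 was 3.21 ± 0.89 (adjusted p = 0.011), its libraries overlapped, without pair 4 it was 1.91 (adjusted p = 0.011), and without the block it did not pass (adjusted p = 0.072).

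Hox genes, the homeobox factors that give cells their address along the body axis, differed between the layers in both directions. Of 30 members 11 were at least 2-fold higher and 13 at least 2-fold lower in dermis. Among HoxA genes (chr6:52112350-52190853), the 6 with paralog numbers 2 to 7 were at least 2-fold lower in dermis, and Hoxa9 and Hoxa10 at least 2-fold higher. Hoxa7 had 14.2, 13.5, 11.4 and 9.17 CPM in dermis and 34.0, 59.4, 41.3 and 61.6 CPM in epidermis (-1.91 ± 0.20). Its measured neighbour Hoxa9 had 24.7, 26.2, 26.9 and 22.6 CPM in dermis and 0.830, 2.42, 0.918 and 3.94 CPM in epidermis (3.23 ± 0.27). The change of side between Hoxa7 and Hoxa9 was present in all 4 pairs.

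In the HoxB cluster (chr11:96132771-96229570), of 8 genes with numbers up to 8, 6 were at least 2-fold lower in dermis, and Hoxb9 was at least 2-fold higher. Hoxb8 had 1.07, 0.828, 0.248 and 0.285 CPM in dermis and 4.34, 3.94, 4.59 and 3.82 CPM in epidermis (-1.72 ± 0.18), and Hoxb9 had 8.59, 10.9, 19.4 and 6.21 CPM in dermis and 1.28, 0.727, 1.71 and 0.939 CPM in epidermis (2.41 ± 0.22). In the HoxD cluster (chr2:74529147-74603200), by contrast, all 6 measured genes were at least 2-fold higher in dermis, from Hoxd4 (1.39 ± 0.19) to Hoxd9 (3.46 ± 0.21). In the HoxC cluster (chr15:102751534-102867274), Hoxc9 and Hoxc10 were at least 2-fold higher, the genes with lower numbers differed by less than 2-fold, and Hoxc13, a factor of hair and nail epithelium, was lower (-1.06 ± 0.18). Several Hox genes overlap other listed genes (7 for Hoxa3), and no source states the strand setting of the counting, so reads of neighbours could be shared. With a pseudocount of 5 in place of 1, 8 Hox genes were at least 2-fold lower and 9 at least 2-fold higher.

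**Figure D4:**
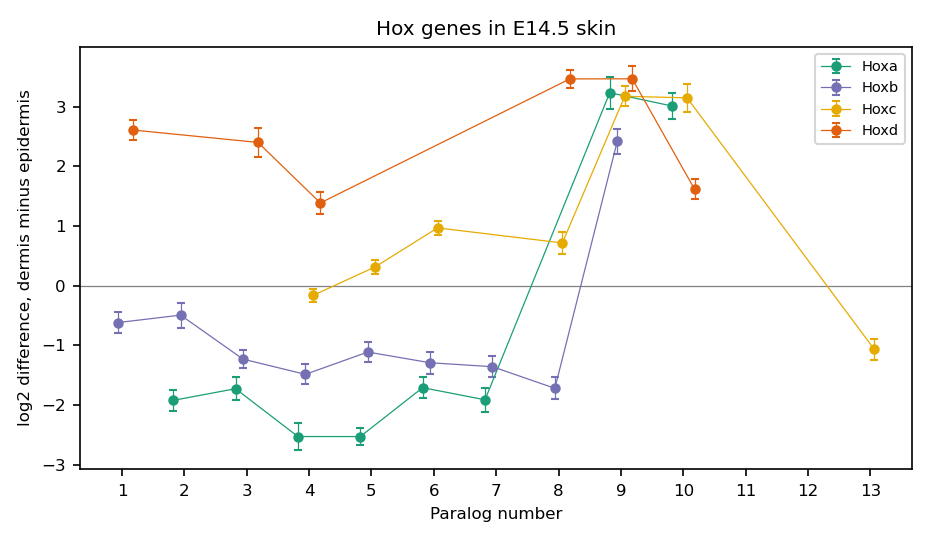
Log2 difference (dermis minus epidermis) and its standard error against paralog number for 30 Hox genes, with a line for each cluster and symbols set slightly apart within a number. HoxA and HoxB genes change sign between numbers 7 or 8 and 9, HoxD genes are above 0 throughout, and Hoxc13 is the only gene with a number over 8 that lies below 0.

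Immediate early and stress genes were higher in dermis for 18 of 21 members, all at least 2-fold. Egr1, an early response factor, had 368, 270, 287 and 324 CPM in dermis against 24.8, 20.8, 12.7 and 12.7 CPM in epidermis (4.11 ± 0.15). Fos, a component of the AP-1 factor, had 499, 325, 436 and 442 CPM in dermis and 72.5, 58.0, 60.3 and 61.5 CPM in epidermis (2.72 ± 0.09). Atf3, a stress-induced factor, differed by 4.12 ± 0.10. Both layers went through the same warm EDTA step, and whether handling moved these genes was not tested. Hspa1b, an inducible heat shock protein, was lower in dermis with 39.5, 38.8, 48.2 and 32.5 CPM, against 69.0, 77.3, 124 and 118 CPM in epidermis (-1.23 ± 0.16). Its near-identical neighbour Hspa1a had 27.3, 23.1, 27.7 and 20.3 CPM in dermis and 16.3, 18.4, 23.7 and 24.3 CPM in epidermis, and short reads may not separate these genes.

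Proliferation genes were nearly level between the layers. None of 22 DNA replication genes and none of 22 mitosis genes reached a called 2-fold difference, where 28.0% of all genes did in either direction. At the p threshold alone, 7 replication genes were higher and 4 lower in dermis, and 2 mitosis genes were higher and 6 lower. Mcm2, a subunit of the replicative helicase, had 164, 182, 169 and 171 CPM in dermis and 168, 174, 152 and 164 CPM in epidermis (0.06 ± 0.07). Mki67, a marker of cycling cells, had 499, 598, 474 and 385 CPM in dermis and 653, 674, 557 and 628 CPM in epidermis (-0.38 ± 0.11, adjusted p = 0.014), a call that was lost without pair 3 (adjusted p = 0.053).

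The layer difference of E14.5 skin was then set against that of healed wounds, with tissue by group contrasts fitted over all 20 libraries. Wound libraries were shallower (1407498 to 10810590 reads, 11179 to 18734 genes detected). The embryonic and wound skins differ in age, history and depth. They may also differ in body site and in tamoxifen, which the paper states for the wounded mice. These factors cannot be told apart. Transcripts of the other layer, a median of 2.90% to 9.26% for dermal genes in E14.5 epidermis, were not measured in the wounds. Compared with WT wounds, the dermis minus epidermis difference was more positive in E14.5 skin for 2470 genes (12.5%) and more negative for 1599 (8.07%), and compared with Shh wounds for 2252 (11.4%) and 1118 (5.64%). When the 50 most abundant genes were left out of the library totals, the counts were 1661 and 2305, and under TMM scaling 1969 and 1795, so the share of more positive calls was 60.7% as deposited, 41.9% without those genes and 52.3% under TMM. Among WT wounds, dermis Con-9229 had 177144 CPM in the single gene Mir5105 (16195 and 23333 CPM in the other WT dermis libraries), and epidermis Con-9097 held 11179 detected genes (14178 and 17618 in the others). Without the pair Con-9229 the counts were 2251 and 1781, and without Con-9097 they were 3236 and 1489. Of the genes whose contrast with WT wounds is given below, none changed direction or call without either pair.

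Interstitial matrix genes separated the layers more in wounds. For 25 of 30 list members the difference was more negative in E14.5 skin than in WT wounds, and the list median was 3.34 in E14.5 skin, against 7.09 in WT wounds. How far dermal RNA in the epidermis libraries set these values was not tested. Col1a1 averaged 7073 CPM in dermis and 384 CPM in epidermis at E14.5, and 127430 CPM in dermis and 885 CPM in epidermis of WT wounds, so its difference was 4.37 in E14.5 skin, against 7.59 in WT wounds (contrast -3.22 ± 0.57, adjusted p = 0.0020). Postn and Sema3a were transcribed in embryonic epidermis and low in the epidermis of wounds, with contrasts of -5.68 ± 0.35 and -5.94 ± 0.42. Sema3a averaged 63.7 CPM in dermis and 62.7 CPM in epidermis at E14.5, against 95.0 CPM in dermis and 0.363 CPM in epidermis of WT wounds. Shh wounds gave contrasts of the same sign for Postn (-4.01) and Sema3a (-5.94), and share the E14.5 libraries.

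The largest contrasts toward wound dermis were H19, Fam101b, Itih5, Pltp and Vcan, between -7.46 and -6.24. H19, an imprinted growth-related RNA of fetal tissue, averaged 7096 CPM in dermis and 6837 CPM in epidermis at E14.5, against 929 CPM in dermis and 4.10 CPM in epidermis of WT wounds. Pdgfc reversed its side: it averaged 12.3 CPM in dermis and 90.0 CPM in epidermis at E14.5, against 15.3 CPM in dermis and 1.31 CPM in epidermis of WT wounds (contrast -5.76 ± 0.45). The largest contrasts in the other direction, between 7.20 and 7.90, were 1100001G20Rik, Il18, Rptn, Serpina12 and 9930013L23Rik. Rptn (repetin) of the cornified layer averaged 0.259 CPM in dermis and 1.03 CPM in epidermis at E14.5 and 12.1 CPM in dermis and 2907 CPM in epidermis of WT wounds.

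Among hair placode genes the layer difference was more negative in E14.5 skin than in WT wounds for 9 of 24 and more positive for 3. The contrast was -2.85 ± 0.69 for Shh (adjusted p = 0.012), -4.31 ± 0.65 for Edar and -2.34 ± 0.56 for Wnt10b, the last of which missed the threshold with a pseudocount of 0.1 (adjusted p = 0.092). Fgf20 and Dkk4 had no read in any WT wound library, so their contrasts (-3.28 and -3.93) rest on the E14.5 libraries. For Shh, the mean was 0.388 CPM in dermis and 6.05 CPM in epidermis at E14.5, 1.37 CPM in dermis and 0.499 CPM in epidermis of WT wounds, and 4.03 CPM in dermis and 9.11 CPM in epidermis of Shh wounds, where the contrast with E14.5 skin did not pass (-1.20, adjusted p = 0.28). Wnt7b and Ptch1 gave contrasts of 0.58 ± 0.61 and -0.11 ± 0.37 against WT wounds, neither past the threshold, and Krt1 gave -0.22 ± 0.49.

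Stress, muscle and erythroid genes contributed to the more positive contrasts. Against WT wounds the difference was more positive in E14.5 skin for 13 of 21 stress genes, 15 of 22 muscle genes and 9 of 12 erythroid genes, and more negative for none of them. Egr1 averaged 312 CPM in dermis and 17.7 CPM in epidermis at E14.5, against 239 CPM in dermis and 143 CPM in epidermis of WT wounds (contrast 3.42 ± 0.30, adjusted p = 1.4e-05). Fos had a contrast of 2.40 ± 0.38. Crabp1, the largest rise in E14.5 dermis, was higher in dermis of WT wounds too (205 CPM in dermis and 8.06 CPM in epidermis), and its contrast of 1.37 ± 0.53 did not pass (adjusted p = 0.089). It passed without pair 3, whose epidermis had the highest Crabp1 (1.83, adjusted p = 0.022), and with a pseudocount of 5 (1.61, adjusted p = 0.022).

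**Figure D5:**
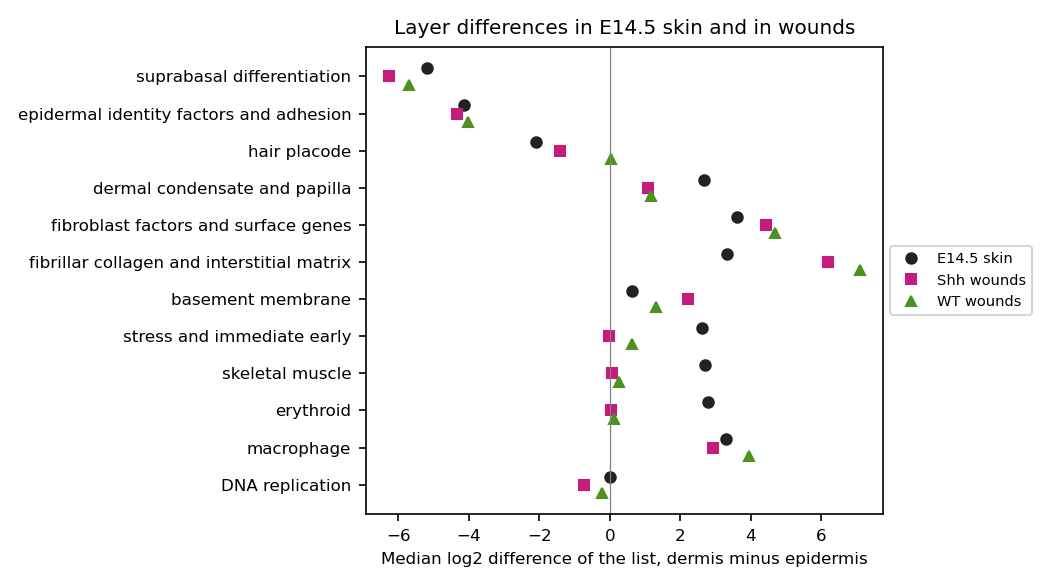
Median log2 difference (dermis minus epidermis) of 12 gene lists in E14.5 skin (circles), Shh wounds (squares) and WT wounds (triangles), all from the fit over 20 libraries. Matrix genes lie furthest right in wounds, stress, muscle and erythroid genes furthest right in E14.5 skin, and suprabasal genes lie at the left in all 3.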

How the data were processed

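RNA of 4 dermis and 4 epidermis samples was depleted of ribosomal RNA, made into stranded total RNA libraries and read as paired ends of 50 bases. Per the submitters' processing notes, Bowtie, SAMtools and HTSeq and build NCBIM37 were used, but neither versions nor the strand setting are stated. The authors deposited CPM values per gene, 1 table per tissue, which were joined on gene ID (19807 genes in each, 100 symbols with several IDs). Each library sums to 1000000, and 100% of values were whole multiples of 1 read within 0.01, so whole reads were recovered for alternatives. Columns of the authors' own comparisons in these tables (p-value, fold change, false discovery rate) were left aside, as were their tables of other comparisons.

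Log2(CPM + 1) was fitted with limma 3.58.1 in R 4.3.3 with a trend of spread with level, the pair number as block and genes with at least 1 read in the 8 libraries. The exact paired permutation test cannot go below p = 0.125 with 4 pairs. Equal numbers were taken as pairs by assumption, since the labels do not say that they share an embryo or pool. Deviations from the group means correlated weakly between same-numbered dermis and epidermis (0.24, 0.11, 0.15 and 0.30 for 3, 4, 5 and 7, over 16236 genes). Dermis 4 correlated more with epidermis 5 (0.16). For wounds, the animal number was the block in 1 fit of 20 libraries. Alternatives were no block, pseudocounts of 0.1 and 5, other filters, no trend, TMM scaling, totals without the 50 most abundant genes, edgeR 4.0.16 and DESeq2 1.42.0 on the recovered reads, all 20 libraries in 1 fit, and each pair left out. The script was tested on simulated data.

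Genes were named as the strongest members of 36 gene lists, members against the majority of their list, all ligand and receptor pairs, the study's own genes and the 10 genes with the largest positive and the 10 with the largest negative difference among those that averaged 1 CPM or more without overlap. Members, lists and rules were chosen with earlier results of these data known. Symbols that the tables do not list, and Flg with several IDs, were not analysed here, and a few genes are not reported here.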

Additional observations from a re-analysis of the deposited data

Results flagged for a closer look

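Of 346 groups of 4 libraries, 2 for each of 173 genes, 41 (11.9%) held a library whose gap to its nearest neighbour exceeded Dixon's 95% critical value. For independent values of normal spread, about 1 in 20, or 17.3, would do so. These genes were named with results known, were tested in CPM and often share an outlying library, so that number is only a rough guide. Dermis 4 stood highest in 17 of the 41 groups and epidermis 3 in 8.

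Dermis 3 stood lower than the other dermis libraries for Pmel at 3.15 CPM (6.83 to 7.56 CPM in the others), Dct at 1.60 CPM (8.23 to 8.77 CPM in the others) and Slc45a2 at 0.267 CPM (0.854 to 0.938 CPM in the others). In dermis, library 4 was higher for Krtdap at 25.3 CPM (5.75 to 7.47 CPM in the others), S100a14 at 18.8 CPM (5.01 to 6.03 CPM in the others), Asprv1 at 23.3 CPM (6.93 to 8.86 CPM in the others), Pla2g2f at 11.6 CPM (3.19 to 3.95 CPM in the others), Them5 at 9.93 CPM (2.05 to 3.31 CPM in the others) and Itgb4 at 43.0 CPM (18.6 to 22.8 CPM in the others). Library 4 of dermis had higher values of Edar at 8.06 CPM (2.29 to 3.09 CPM in the others), Wnt10b at 9.05 CPM (2.72 to 3.68 CPM in the others), Dkk4 at 4.14 CPM (0.743 to 1.23 CPM in the others), Nfatc1 at 49.1 CPM (39.6 to 40.6 CPM in the others), Col4a5 at 51.2 CPM (36.4 to 37.9 CPM in the others) and Wnt3a at 4.69 CPM (0.683 to 1.28 CPM in the others). Dermis 4 stood higher than the other dermis libraries for Wnt7b at 25.0 CPM (5.35 to 7.04 CPM in the others), Wnt9b at 1.38 CPM (0.371 to 0.480 CPM in the others), Notch1 at 325 CPM (173 to 198 CPM in the others), Col2a1 at 939 CPM (3.03 to 36.5 CPM in the others) and Hoxc13 at 0.497 CPM (0 to 0.0569 CPM in the others). In dermis, library 5 was higher for Kit at 60.2 CPM (43.2 to 43.4 CPM in the others). Library 7 of dermis had higher values of Npnt at 61.8 CPM (35.1 to 35.9 CPM in the others), Myh3 at 2734 CPM (859 to 1072 CPM in the others) and Adipoq at 39.7 CPM (0 to 0.213 CPM in the others). Dermis 7 stood lower than the other dermis libraries for Wls at 145 CPM (187 to 195 CPM in the others).

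In epidermis, library 3 was higher for Crabp1 at 46.0 CPM (9.79 to 13.9 CPM in the others), Cldn5 at 5.11 CPM (0.857 to 1.57 CPM in the others), Bmp7 at 154 CPM (134 to 137 CPM in the others), Lamc3 at 2.17 CPM (0.424 to 0.612 CPM in the others), Trp73 at 30.9 CPM (27.5 to 27.8 CPM in the others) and Itgb4 at 217 CPM (193 to 195 CPM in the others). Library 3 of epidermis had higher values of Wnt10a at 40.1 CPM (34.3 to 34.8 CPM in the others) and Tgfb2 at 81.4 CPM (13.9 to 17.7 CPM in the others). Epidermis 4 stood higher than the other epidermis libraries for Col4a6 at 71.5 CPM (60.6 to 61.7 CPM in the others) and Col2a1 at 5.88 CPM (0.857 to 1.56 CPM in the others). In epidermis, library 4 was lower for Wnt4 at 150 CPM (177 to 182 CPM in the others) and Cebpa at 477 CPM (513 to 519 CPM in the others). Library 5 of epidermis had higher values of Ivl at 5.81 CPM (1.98 to 2.38 CPM in the others) and Col4a5 at 122 CPM (114 to 115 CPM in the others). Epidermis 5 stood lower than the other epidermis libraries for Lama4 at 20.7 CPM (43.3 to 46.4 CPM in the others). In epidermis, library 7 was higher for Il18 at 0.376 CPM (0 CPM in the others).

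The dermis minus epidermis difference itself differed between E14.5 skin and WT wounds past the threshold (limma, adjusted p under 0.05) for 23 of 27 genes whose contrast was given, on the log2(CPM + 1) scale. The contrast was negative for H19 at -7.46, Fam101b at -7.28, Itih5 at -7.03, Pltp at -6.75, Vcan at -6.24, Sema3a at -5.94, Pdgfc at -5.76, Postn at -5.68 and Edar at -4.31. It was also negative for Dkk4 at -3.93, Fgf20 at -3.28, Col1a1 at -3.22, Pdgfa at -2.94, Shh at -2.85, Col3a1 at -2.74 and Wnt10b at -2.34. It was positive for 1100001G20Rik at 7.90, Il18 at 7.29, Rptn at 7.28, Serpina12 at 7.25, 9930013L23Rik at 7.20, Egr1 at 3.42 and Fos at 2.40. The genes with the largest contrasts were chosen by their size among genes already past the threshold, so their passing was set by the choice. Over all genes, the contrast passed as more positive for 12.5% and as more negative for 8.07%.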

How the results depend on the processing

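For 6 counts over all genes, 87 of 92 alternative values stayed within a factor of 1.5 of the reported one. With all 20 libraries in 1 fit, 3869 genes were higher and 3020 lower in dermis, and the calls of Lef1, Cxcl14, Nedd9, Trps1, Gli3, Met, Mki67, Hoxc13, Kit, Tgfb2, Postn, Npnt, Axin2, Rptn and Serpina12 were lost (adjusted p from 0.055 for Hoxc13 to 0.62). With a pseudocount of 5, 2109 genes were at least 2-fold higher and 1342 at least 2-fold lower, and with a pseudocount of 0.1, the contrast with WT wounds was more positive for 1583 genes. Leaving out each pair in turn gave 5819 to 6027 genes higher, 6057 to 6500 lower, 3330 to 3487 at least 2-fold higher and 2069 to 2215 at least 2-fold lower. For the contrast with WT wounds, leaving out each pair gave 1751 to 3236 more positive and 1104 to 2112 more negative genes. Without the replicate block, 6280 genes were higher and 7027 lower, 3411 and 2091 of them at least 2-fold, and the calls of Vcan, Col2a1, Tgfb2, Npnt, Axin2 and Rptn changed among the genes named. Of 173 named genes 145 kept direction and side of the threshold under every alternative. Those that changed sign were not past the threshold as reported. Lrig1 was 0.038 under TMM scaling, 0.044 without the 50 most abundant genes, 0.038 in edgeR and 0.070 in DESeq2, and ran from -0.085 to 0.021 with 1 pair left out. Adipoq was -1.15 in DESeq2 and ran from -0.20 to 1.66 with 1 pair left out. The same ranges were -0.13 to 0.25 for Gli2, -0.063 to 0.086 for Sema3a and -0.026 to 0.11 for H19, and for the contrasts with WT wounds -0.40 to 0.20 for Ptch1 and -0.71 to 0.12 for Krt1. The cause was not tested. In wound libraries 1 read was worth up to 0.710 CPM.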
